A study of Mus musculus with 15 samples.

Results

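The 9 genes Sostdc1, Dkk1, Dkk2, Dkk3, Wif1, Sfrp1, Sfrp2, Sfrp4 and Frzb encode the best known secreted antagonists of Wnt signalling, and their read counts were followed in nests of murine basal cell carcinoma (BCC), the commonest skin tumour of humans and one driven by the Hedgehog pathway. They were chosen by name, with earlier results of these data known, and are 9 of the 36528 genes listed. Polyadenylated RNA was sequenced from 15 libraries of tumour nests cut by laser capture from frozen skin. There were 5 libraries from residual nests after 28 days of vismodegib, which blocks the Hedgehog transducer Smoothened, 5 from untreated nests negative for the proliferation antigen Ki67, and 5 from untreated nests positive for it. Every mouse, treated or not, carried K14Cre-ER, a tamoxifen-inducible Cre recombinase expressed from the keratin 14 promoter of basal epithelium, together with the floxed alleles Ptch1fl/fl and p53fl/fl and the reporter allele Lgr5GFP. Deletion was thus directed to keratin 14-expressing cells. The labels give no age, and they tie no library to an animal, so nests of a group may share animals and the p-values may then be too small.

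Wnt proteins are secreted ligands that bring together a Frizzled receptor and the co-receptor Lrp5 or Lrp6, which stabilises beta-catenin and switches on genes such as Axin2. Antagonists act outside the cell in either of 2 ways. Wif1 and the secreted Frizzled-related proteins (Sfrp1, Sfrp2, Sfrp4 and Frzb, also called Sfrp3) bind the Wnt ligand itself, whereas the Dickkopf proteins Dkk1 and Dkk2, and Sostdc1, bind the co-receptors. In skin, Wnt signalling starts hair follicles and their regrowth, and these antagonists are made by epithelium and by the dermal cells beside it.

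Depth ranged from 4887381 to 10328822 counts per library, with 6413055 to 10328822 in the vismodegib group, 4887381 to 7158143 in the Ki67-negative group and 4929869 to 8359195 in the Ki67-positive group. Ki67-negative library 5 stood apart, with counts for 19669 genes against 21653 to 23322 in the other libraries. The Hedgehog target Ptch1 was lower in treated nests (adjusted p = 0.000977 over Ki67-negative and 0.00136 over Ki67-positive nests, edgeR), at 142 to 923 CPM, read counts scaled to a common library depth, in vismodegib libraries, against 2053 to 3727 CPM in Ki67-negative and 2446 to 3758 CPM in Ki67-positive libraries. Intact and deleted Ptch1 transcripts share most of the gene model, so this level checks no deletion. The proliferation gene Mki67 averaged 683 ± 142 CPM in vismodegib nests, 361 ± 74.5 CPM in Ki67-negative nests and 776 ± 228 CPM in Ki67-positive nests (SD, n = 5 each). Epithelial markers were abundant, with 8 basal epithelial genes summing to 13119 to 16612 CPM in vismodegib, 5462 to 9262 CPM in Ki67-negative and 7349 to 9034 CPM in Ki67-positive libraries. This sum does not tell tumour from other basal epithelium. The labels name no sequencing batch, so one that followed the groups cannot be told apart from them. The female-specific RNA Xist exceeded the Y-linked Ddx3y in 3 vismodegib, 1 Ki67-negative and 1 Ki67-positive libraries.

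The genes lie on 8 mouse chromosomes, with coordinates from the RefSeq annotation of GRCm38.p6. Sostdc1 lies at chr12:36314169-36318452, Dkk1 at chr19:30545876-30549496, Dkk2 at chr3:132085266-132180304 and Dkk3 at chr7:112116019-112159482. Wif1 lies at chr10:121034004-121100642, Sfrp1 at chr8:23411383-23449632, Sfrp2 at chr3:83765750-83774314, Sfrp4 at chr13:19623175-19632825 and Frzb at chr2:80411970-80447396. All are protein-coding.

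RefSeq promoter windows of GRCm38.p6, running from 250 bases before to 50 bases after a transcript start, were found for 5 of the 9 genes: Frzb, Sfrp2, Dkk2, Wif1 and Dkk1. That start is the first base of the gene as given above for Frzb, Wif1 and Dkk1, but lies 571 bases inside it for Sfrp2 and 26 bases inside it for Dkk2. Those of Wif1, Frzb and Dkk1 are shown, 5′ to 3′ on the strand of the gene, because these genes were lower in vismodegib nests than in Ki67-positive nests. They are Wif1 at chr10:121033754-121034053 (plus strand), Frzb at chr2:80447347-80447646 (minus strand) and Dkk1 at chr19:30549447-30549746 (minus strand). Capitals mark TATAAA, the core of the TATA box, read in either direction.
Wif1: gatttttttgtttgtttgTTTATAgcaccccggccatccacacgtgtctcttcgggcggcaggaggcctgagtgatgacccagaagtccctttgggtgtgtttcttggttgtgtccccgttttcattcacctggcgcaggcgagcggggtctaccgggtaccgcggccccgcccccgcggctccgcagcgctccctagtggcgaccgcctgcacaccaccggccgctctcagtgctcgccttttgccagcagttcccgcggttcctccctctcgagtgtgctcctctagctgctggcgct
Frzb: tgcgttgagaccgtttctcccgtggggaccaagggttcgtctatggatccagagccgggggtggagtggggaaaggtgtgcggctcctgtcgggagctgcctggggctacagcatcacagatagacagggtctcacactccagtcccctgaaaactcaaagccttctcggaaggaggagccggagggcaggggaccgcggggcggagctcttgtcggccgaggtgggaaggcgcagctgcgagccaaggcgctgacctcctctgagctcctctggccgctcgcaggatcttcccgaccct
Dkk1: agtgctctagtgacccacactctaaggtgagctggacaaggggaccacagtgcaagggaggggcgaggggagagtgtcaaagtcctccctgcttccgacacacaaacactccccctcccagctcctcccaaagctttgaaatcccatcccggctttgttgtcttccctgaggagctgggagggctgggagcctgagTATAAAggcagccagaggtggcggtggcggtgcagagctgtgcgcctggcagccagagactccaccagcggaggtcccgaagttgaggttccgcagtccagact
The core CTTTGAT bound by TCF/LEF factors and the GLI core GACCACCCA were searched on both strands, and neither exact form was in any of the 5 windows. Similar forms were not searched or counted, and the Dkk1 window holds CTTTGAA and CTTTGTT. Of all 32851 promoter windows of this length, 3.73% held CTTTGAT and 0.253% held GACCACCCA. TATAAA, a motif added after the sequences had been read, began 54 bases before this transcript start in Dkk1 and 32 bases before it in Dkk2. In Wif1 it lay on the opposite strand, its first window base 232 bases before the transcript start, and Frzb and Sfrp2 had none. Across all windows 13.6% held TATAAA on either strand. The windows of Wif1, Sfrp2 and Frzb were rich in CpG dinucleotides, with 25, 22 and 20, whereas those of Dkk2 and Dkk1 had 11 and 9, and the median over all windows was 7.

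Sostdc1 was the one member that rose after vismodegib. It encodes a cystine-knot protein, also called ectodin or Wise, that binds Lrp co-receptors and bone morphogenetic proteins (BMPs) and is expressed in hair follicle epithelium. Sostdc1 was measured at 558, 802, 889, 907 and 906 CPM in vismodegib libraries 1 to 5, against 162, 171, 88.0, 98.1 and 101 CPM in Ki67-negative libraries and 241, 211, 198, 238 and 297 CPM in Ki67-positive libraries. All 5 vismodegib libraries lay above all untreated ones. In such bulk samples fewer cells of a type and less RNA per cell cannot be told apart, here and for every gene below. The log2 fold change was 2.71 (SE 0.203, adjusted p = 4.96e-08) for vismodegib over Ki67-negative nests and 1.78 (SE 0.196, adjusted p = 3.77e-06) for vismodegib over Ki67-positive nests, by edgeR's quasi-likelihood test with Benjamini-Hochberg adjustment over 17282 genes. Library 1 was the lowest of the treated group, and the coefficient of variation within groups was 18.3% in vismodegib, 31.7% in Ki67-negative and 16.0% in Ki67-positive nests.

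**Figure D1:**
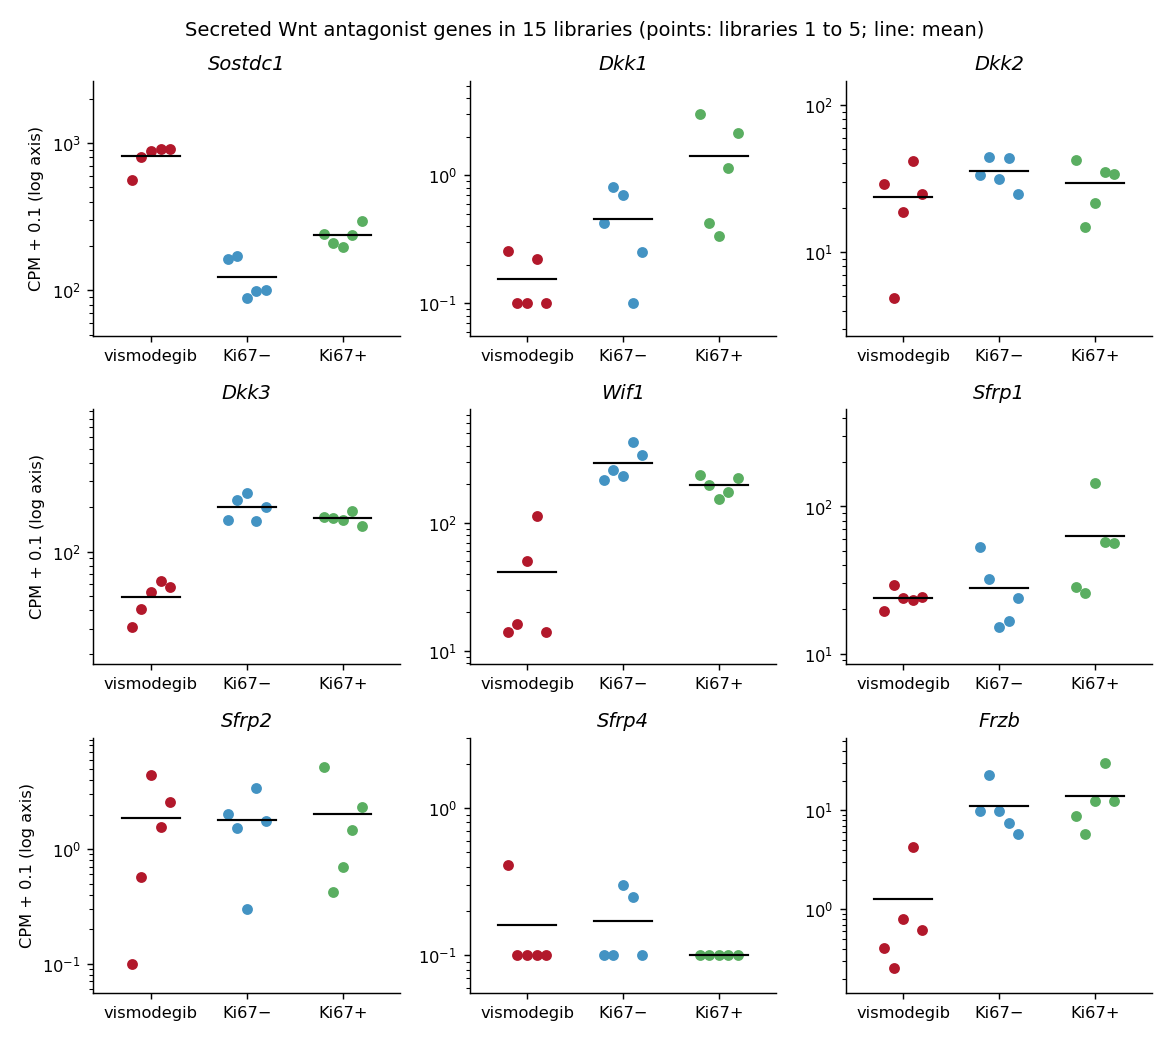
CPM of each of the 9 genes plus 0.1, on log axes that differ between panels. Each point is a library and each line a mean over 5 libraries, with vismodegib on the left, then Ki67-negative and Ki67-positive nests. Sostdc1 sits at 558 to 907 CPM in vismodegib nests, above every untreated library, while Dkk3, Wif1 and Frzb sit below every untreated library.

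Wif1, which binds Wnt ligands directly through its WIF domain, fell after vismodegib and was uneven among treated nests (coefficient of variation 103%). Its levels were 14, 16.0, 50.1, 113 and 14 CPM in vismodegib libraries 1 to 5, against 217, 257, 232, 427 and 338 CPM in Ki67-negative libraries and 238, 198, 154, 173 and 225 CPM in Ki67-positive libraries. The groups did not overlap, and the nearest values were 113 CPM in vismodegib library 4 and 154 CPM in Ki67-positive library 3. The log2 fold change was −2.82 (SE 0.529, adjusted p = 0.00105, edgeR) over Ki67-negative and −2.25 (SE 0.519, adjusted p = 0.00509) over Ki67-positive nests. Without vismodegib library 4 these values were −3.63 and −3.05.

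Frzb, a Frizzled-related decoy first known from cartilage, had the greatest fold decrease of the members that entered the fit, at a far lower level. It reached 0.308, 0.158, 0.693, 4.13 and 0.524 CPM in vismodegib libraries, from 2, 1, 7, 34 and 4 reads. Ki67-negative libraries held 9.84, 22.5, 9.69, 7.40 and 5.68 CPM and Ki67-positive libraries 8.60, 5.63, 12.4, 29.9 and 12.3 CPM. Every vismodegib library lay below every untreated one, and library 4 again stood above the rest of its group. The log2 fold change was −3.19 (SE 0.687, adjusted p = 0.00204, edgeR) over Ki67-negative and −3.51 (SE 0.691, adjusted p = 0.00109) over Ki67-positive nests. Without vismodegib library 4 it was −4.58 and −4.90.

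Vismodegib library 4 also had the highest Ptch1 and Hhip of its group, but not the highest Gli1. Ptch1 stood at 148, 876, 664, 923 and 142 CPM in vismodegib libraries 1 to 5, and Hhip, a Hedgehog-binding protein and target gene, at 8.79, 3.32, 13.6, 29.7 and 10.6 CPM. Gli1, the Hedgehog-induced transcription factor gene, stood at 28.8, 126, 112, 89.6 and 21.0 CPM in the same libraries. Library 2 had high Ptch1 with Wif1 at 16.0 CPM and Frzb at 0.158 CPM.

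Sfrp1, a Wnt-binding Frizzled-related protein, fell relative to Ki67-positive nests, and its difference from Ki67-negative nests did not pass the test. It was measured at 19.3, 29.3, 23.7, 22.9 and 24.1 CPM in vismodegib libraries, against 52.6, 31.9, 15.1, 16.6 and 23.6 CPM in Ki67-negative libraries and 28.3, 25.7, 145, 57.7 and 56.0 CPM in Ki67-positive libraries. The treated libraries were tightly grouped (coefficient of variation 15%), and the untreated ones were not (54.6% in Ki67-negative and 77.7% in Ki67-positive nests). Against Ki67-positive nests the log2 fold change was −1.40 (SE 0.429, adjusted p = 0.0240, edgeR), and 4 of 5 vismodegib libraries lay below all Ki67-positive ones. Over Ki67-negative nests it was −0.23 (SE 0.427, adjusted p = 0.709). The call against Ki67-positive nests was lost without Ki67-positive library 3 (log2 fold change −0.82, adjusted p = 0.0881), without vismodegib library 1 (adjusted p = 0.0565) or 3 (0.0509), and with Xist above Ddx3y as a covariate (0.0546).

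Sfrp2 and Sfrp4, secreted Frizzled-related proteins best known from mesenchymal cells, were scarce. Sfrp2 held 0, 0.474, 4.35, 1.46 and 2.49 CPM in vismodegib libraries, against 1.94, 1.42, 0.202, 3.32 and 1.65 CPM in Ki67-negative and 5.07, 0.322, 0.594, 1.37 and 2.22 CPM in Ki67-positive libraries. The 3 groups overlapped, and no difference was detectable at this depth (log2 fold change 0.06, SE 0.829, adjusted p = 0.966 over Ki67-negative and −0.08, SE 0.831, adjusted p = 0.957 over Ki67-positive nests, edgeR). Sfrp4 gave 2 reads in vismodegib library 1, 1 read each in Ki67-negative libraries 3 and 4, and none in the other 12 libraries. It was left out of the fit for low counts, and no fold was computed.

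Among the Dickkopf genes Dkk3 was the most abundant, and it fell after vismodegib. Its coefficient of variation was 26.8% in vismodegib, 19.2% in Ki67-negative and 8.61% in Ki67-positive nests. Dkk3 is the divergent member of the family, whose effect on Wnt signalling varies with the cell. It was measured at 30.7, 40.8, 53.1, 63.3 and 57.0 CPM in vismodegib libraries, against 164, 225, 250, 161 and 200 CPM in Ki67-negative and 171, 170, 164, 189 and 149 CPM in Ki67-positive libraries. The treated libraries all lay below the untreated ones, with a wide gap. The log2 fold change was −2.03 (SE 0.182, adjusted p = 3.41e-07, edgeR) over Ki67-negative and −1.78 (SE 0.180, adjusted p = 1.49e-06) over Ki67-positive nests.

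Dkk2, which blocks Lrp6 or weakly activates it depending on the cell, did not pass the test. It stood at 28.7, 4.74, 18.5, 41.2 and 24.8 CPM in vismodegib libraries, against 33.2, 44.3, 31.1, 43.2 and 24.7 CPM in Ki67-negative and 42.4, 14.6, 21.5, 35.0 and 33.8 CPM in Ki67-positive libraries. Vismodegib library 2 was far below the rest, and the other values overlapped. The log2 fold change was −0.58 (SE 0.394, adjusted p = 0.277, edgeR) over Ki67-negative and −0.32 (SE 0.394, adjusted p = 0.599) over Ki67-positive nests.

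Dkk1, the classical Lrp6-binding inhibitor, was close to the limit of detection, with 1, 0, 0, 1 and 0 reads in vismodegib libraries, 2, 5, 3, 0 and 1 reads in Ki67-negative libraries and 19, 2, 2, 9 and 10 reads in Ki67-positive libraries. Scaled to depth, every vismodegib library lay below every Ki67-positive one, with 0 to 0.154 CPM in vismodegib against 0.238 to 2.92 CPM in Ki67-positive nests. Vismodegib and Ki67-negative nests overlapped. Summed over libraries and scaled to depth, vismodegib nests had 0.0407 times the Dkk1 reads of Ki67-positive nests (95% interval 0.00477 to 0.156, counting error only) and 0.145 times those of Ki67-negative nests (0.0156 to 0.665). Dkk1 was removed from the main fit by the filter on low counts. The two-sided exact permutation test of mean CPM gave p = 0.00794 against Ki67-positive nests, the smallest that 5 against 5 libraries allow, and p = 0.0873 against Ki67-negative nests, both unadjusted among 6 such tests. With 4 vismodegib libraries in place of 5, the exact permutation test against Ki67-positive nests gave p = 0.0556 whichever library was left out. The difference in mean CPM was then −1.28 to −1.24, against −1.25 with all libraries, so the higher p reflects no particular library. With 4 Ki67-positive libraries in place of 5, the exact permutation test gave p = 0.00794 whichever library was left out. In the fit without a filter on low counts, over 29917 genes, Dkk1 was called against Ki67-positive nests (adjusted p = 0.00993, edgeR) and not against Ki67-negative nests (adjusted p = 0.154).

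Counted over the family, 1 of the 7 members that passed the filter was higher and 4 were lower in vismodegib than in Ki67-positive nests, where 26.0% of all genes tested were called, 12.6% higher and 13.4% lower. Against Ki67-negative nests 1 was higher and 3 were lower, where 31.9% of genes were called, 15.4% higher and 16.5% lower. The median log2 fold change of the 7 genes was −1.40 against Ki67-positive and −0.58 against Ki67-negative nests, beside −0.02 and −0.03 over all genes tested. In each of these comparisons 4 of the 7 had groups that did not overlap (Sostdc1, Dkk3, Wif1 and Frzb), beside 20.3% of all genes against Ki67-positive and 20.5% against Ki67-negative nests. Both comparisons use the same 5 vismodegib libraries and are not independent.

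**Figure D2:**
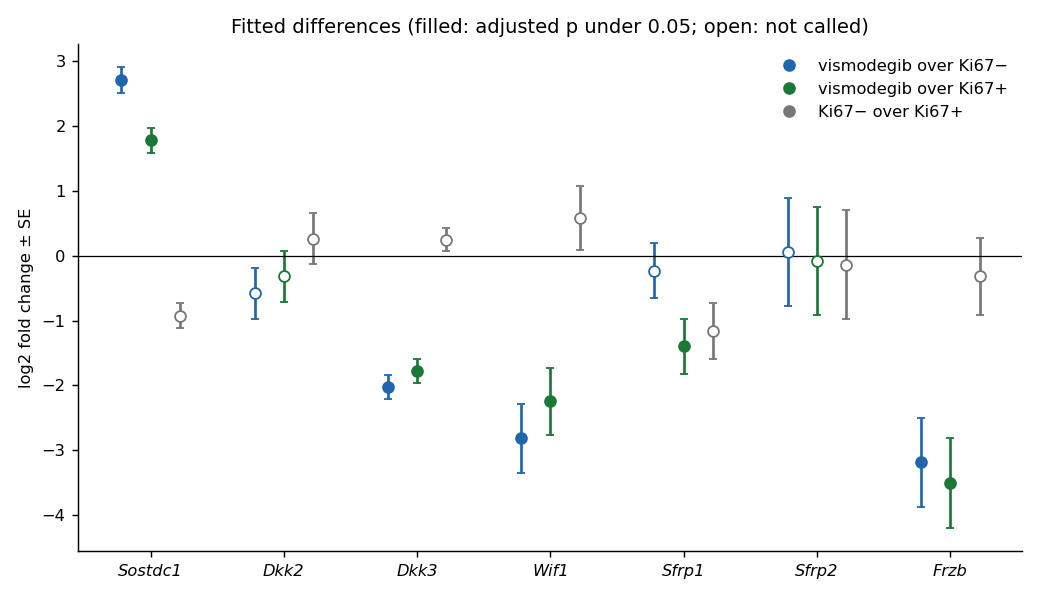
Log2 fold changes with standard errors for the 7 members that entered the fit, in 3 comparisons, with filled symbols where the adjusted p was under 0.05. Sostdc1 is above 0 at 2.71 and 1.78 in the vismodegib comparisons, Dkk3, Wif1 and Frzb are below 0 in both, and no symbol is filled for Ki67-negative over Ki67-positive nests.

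Between the untreated groups no member passed the test, and Sostdc1 came nearest. For Ki67-negative over Ki67-positive nests 0 of the 7 members was called by edgeR, beside 30 of 17282 genes (0.174%), all lower, and 6.68% of genes had an unadjusted p under 0.05, as had 2 members, Sostdc1 and Sfrp1. DESeq2 called 1 member and voom 0. Sostdc1 averaged 124 ± 39.3 CPM in Ki67-negative and 237 ± 37.9 CPM in Ki67-positive nests (SD, n = 5 each), and all 5 Ki67-negative libraries lay below all 5 Ki67-positive ones, as held in either direction for 1.17% of genes. Its log2 fold change of −0.93 (SE 0.193, unadjusted p = 0.000133, adjusted p = 0.0670, edgeR) missed the threshold. It was called in 6 of 23 other settings, among them the DESeq2 Wald test (adjusted p = 0.00309) and the fits without Ki67-negative library 1 (0.0342) or 2 (0.0495) or without vismodegib library 1 (0.0467), and its adjusted p ranged from 0.00309 to 0.286 over these settings. Sfrp1 had an unadjusted p of 0.0149 (log2 fold change −1.16, SE 0.427, adjusted p = 0.638). The other 5 members had log2 fold changes between −0.32 (Frzb, SE 0.597) and 0.58 (Wif1, SE 0.494), with adjusted p of 0.844 to 0.985. Dkk1 gave 11 reads in Ki67-negative and 42 in Ki67-positive nests (ratio 0.280, 95% counting interval 0.130 to 0.554), and the exact two-sided permutation p was 0.127.

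Levels of different genes were compared per length, with the deposited RPKM values (reads scaled by the length of the gene model and by library depth). In vismodegib nests Sostdc1 stood alone at 127 ± 23.8 RPKM, and its range cleared that of Dkk3 (3.81 ± 1.05 RPKM), the next gene (SD, n = 5). Dkk3, Wif1 (3.14 ± 3.28), Dkk2 (1.71 ± 0.984) and Sfrp1 (1.43 ± 0.213 RPKM) followed in that order, each overlapping its neighbour. Sfrp2, Frzb, Sfrp4 and Dkk1 came last, at 0.179 RPKM or less.

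In Ki67-negative nests no member stood alone, since Wif1 (22.5 ± 6.62 RPKM), Sostdc1 (19.7 ± 6.0) and Dkk3 (15.8 ± 3.24) overlapped. Dkk2 (2.58 ± 0.579 RPKM), Sfrp1 and Frzb formed the next overlapping group, and Sfrp2, Dkk1 and Sfrp4 were at 0.176 RPKM or less. In Ki67-positive nests Sostdc1 (37.5 ± 6.20 RPKM) was above Wif1 (15 ± 2.74) and Dkk3 (13.2 ± 1.08), whose ranges overlapped. Sfrp1, Dkk2 and Frzb followed at 3.79, 2.14 and 1.30 RPKM, and Sfrp2, Dkk1 and Sfrp4 were at 0.197 RPKM or less.

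Summed over the 9 genes, per-length expression was 137 ± 27.1 RPKM in vismodegib, 63.6 ± 5.30 RPKM in Ki67-negative and 73.3 ± 7.46 RPKM in Ki67-positive nests (SD, n = 5 each). Sostdc1 supplied 92.6 ± 2.46% of that sum in vismodegib, 30.8 ± 8.21% in Ki67-negative and 50.9 ± 3.59% in Ki67-positive nests. The other 8 genes together summed to 6.50 to 18.6 RPKM in vismodegib libraries, against 36.0 to 50.1 RPKM in Ki67-negative and 31.9 to 38.0 RPKM in Ki67-positive libraries. Wif1 made up 2.11 ± 1.92% of the sum in vismodegib, 35.4 ± 9.90% in Ki67-negative and 20.5 ± 3.02% in Ki67-positive nests. With Sostdc1 the sum was highest in treated nests, and without it lowest.

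**Figure D3:**
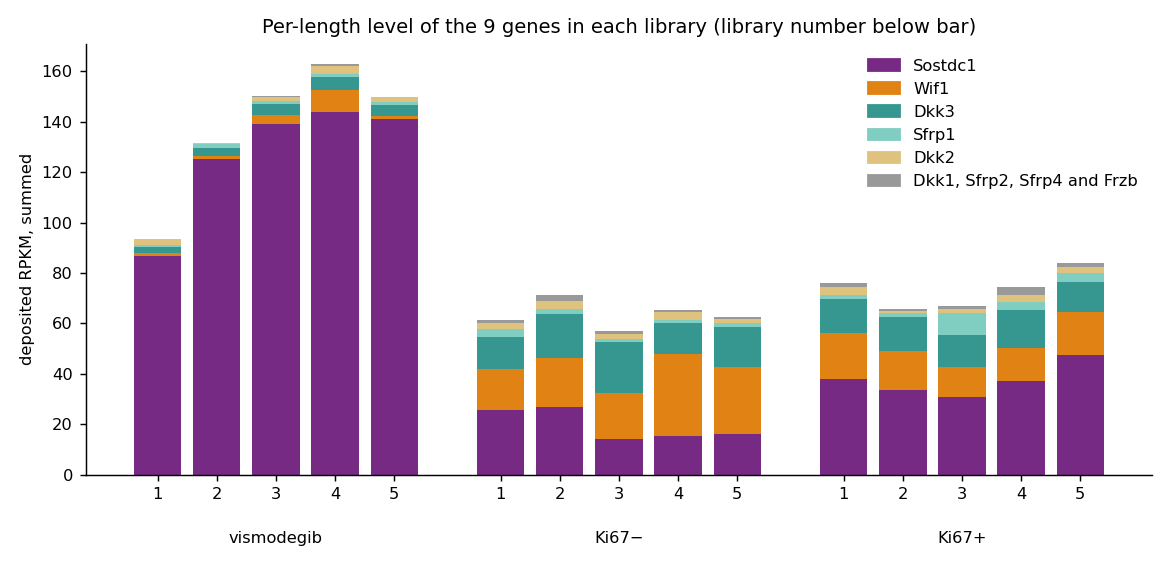
Deposited RPKM of the 9 genes, stacked in each of the 15 libraries, with vismodegib libraries on the left, then Ki67-negative and Ki67-positive ones. The Sostdc1 segment makes up 88.6 to 95% of each vismodegib bar, and the Wif1 and Dkk3 segments are thin there and wide in the untreated bars.

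Laser-captured nests can hold stroma, and some antagonists are also made there, so the markers of other cell types were set beside them. Of 14 fibroblast markers 5 were lower and 0 higher in vismodegib nests in each comparison (Pdgfra, Fbln1, Col6a1, Col6a2 and Mfap5), and the list summed to 2236 to 6857 CPM in vismodegib, 5110 to 10284 CPM in Ki67-negative and 4164 to 9503 CPM in Ki67-positive libraries. Over all genes tested, 16.5% were called lower against Ki67-negative and 13.4% against Ki67-positive nests. No fibroblast marker was at 0 throughout a group. The mean log2 CPM of the list was 5.97, 4.35, 6.47, 6.99 and 6.72 in vismodegib libraries 1 to 5, with 6.89 to 7.79 in Ki67-negative and 6.18 to 7.65 in Ki67-positive libraries. Vismodegib library 2, the lowest in this score, was also the lowest in Dkk2, and Ki67-positive library 2 was the lowest of its group in both. In Ki67-negative nests the lowest score, 6.89, was that of library 3 with Dkk2 at 31.1 CPM, whereas the lowest Dkk2, 24.7 CPM, was in library 5 with a score of 7.39.

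With the fibroblast score as a covariate in the edgeR fit, Sostdc1, Dkk3, Wif1 and Frzb kept their calls against both untreated groups, and Sfrp1 its call against Ki67-positive nests (adjusted p = 0.0274). The log2 fold change of Wif1 was then −2.16 (adjusted p = 0.00733) over Ki67-negative and −1.81 (adjusted p = 0.0114) over Ki67-positive nests, and that of Frzb −2.18 (adjusted p = 0.0168) over Ki67-negative and −2.71 (adjusted p = 0.00280) over Ki67-positive nests. Dkk2 took the other sign, at 0.40 (adjusted p = 0.281) over Ki67-negative and 0.51 (adjusted p = 0.145) over Ki67-positive nests. Sfrp2 stood at 1.77 (adjusted p = 0.154) and 1.49 (adjusted p = 0.222) over the same groups.

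**Figure D4:**
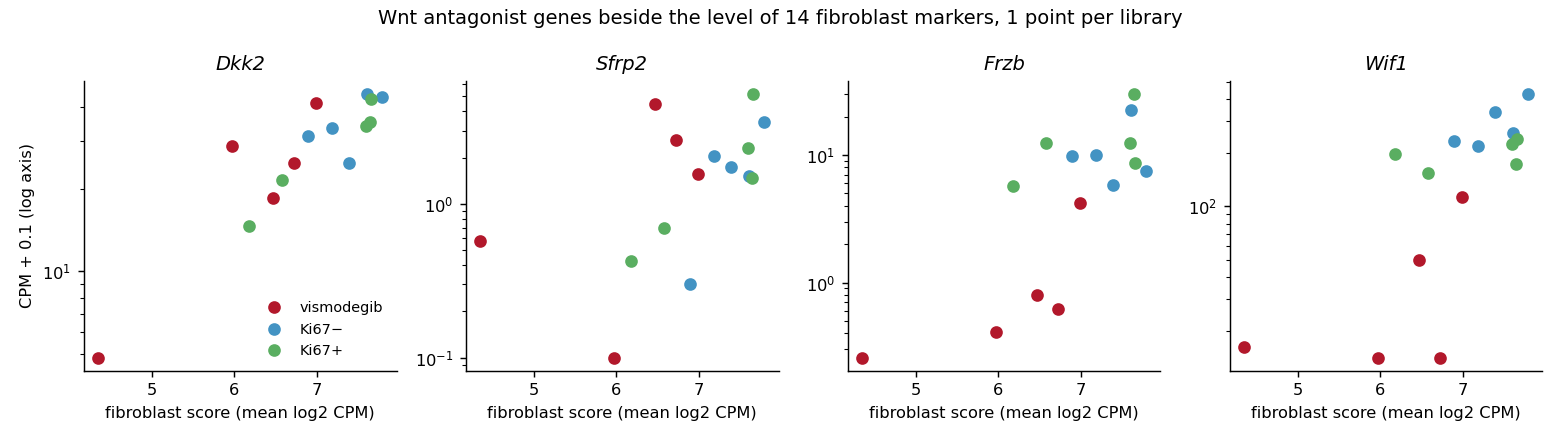
CPM plus 0.1 of Dkk2, Sfrp2, Frzb and Wif1 on a log axis against the mean log2 CPM of 14 fibroblast markers, 1 point per library, coloured by group. The vismodegib libraries run from 4.35 to 6.99 on the horizontal axis. Dkk2 at 4.74 CPM lies at the left end. Frzb and Wif1 in vismodegib libraries lie below all untreated libraries. The untreated scores start at 6.18, so vismodegib libraries 1 (5.97) and 2 (4.35) have no untreated library at their score.

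Markers of the dermal papilla, the mesenchymal cell cluster that signals to the hair follicle, also differed. Of 6 listed, 3 were lower and 0 higher than in Ki67-negative nests and 2 were lower and 0 higher than in Ki67-positive nests. They summed to 8.54 to 40.4 CPM in vismodegib, 44.8 to 103 CPM in Ki67-negative and 37.5 to 115 CPM in Ki67-positive libraries. Beside these and the marker counts below, 16.5% of all genes tested were called lower and 15.4% higher against Ki67-negative nests. Against Ki67-positive nests these shares were 13.4% and 12.6%. The transcription factor gene Alx4 averaged 2.09 ± 2.51 CPM in vismodegib, 19.7 ± 6.30 CPM in Ki67-negative and 28.3 ± 8.41 CPM in Ki67-positive nests. Of 8 pericyte and smooth muscle markers 7 were tested and 5 were lower in each comparison, with sums of 100 to 148 CPM in vismodegib, 653 to 981 CPM in Ki67-negative and 565 to 921 CPM in Ki67-positive libraries. All 7 markers of differentiated epidermis were higher in each comparison, with sums of 3299 to 4325 CPM in vismodegib, 141 to 350 CPM in Ki67-negative and 138 to 426 CPM in Ki67-positive libraries. Of 8 basal epithelial markers 5 were higher and 0 lower than in Ki67-negative nests, and 5 higher and 1 lower than in Ki67-positive nests. The lower one was Krt17, a call lost in 12 other settings. Langerhans and dendritic markers were higher in 4 of 6 and 6 of 6 over Ki67-negative and Ki67-positive nests, melanocyte markers lower in 3 of 5 and 4 of 5, and no endothelial marker of 6 was called. Of 5 T cell markers tested 3 were higher and 1 lower than in Ki67-negative nests, and 4 higher and 0 lower than in Ki67-positive nests. Some of these calls were unsteady, since that of Flt3, among the 6 dendritic markers over Ki67-positive nests, was lost in 12 other settings, as was that of the dermal papilla marker Crabp1 over Ki67-negative nests. Every called T cell marker except Cd5 lost its call in at least 1 setting in each comparison. The part of these markers in the values of Wif1, Frzb, Dkk3 and Sostdc1 was not tested beyond the fibroblast score.

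The genes nearest to each member in pattern were found by the root mean square distance between log2 CPM values centred over the 15 libraries, among 10825 genes of sufficient level. All share these libraries and their 3 groups, and the distances are descriptive. Sostdc1 was nearest to Ptn, which encodes the heparin-binding growth factor pleiotrophin (distance 0.23), then Cobl (0.45) and Apcdd1 (0.47), a membrane-bound Wnt inhibitor, while the SD of Sostdc1 itself was 1.17. Dkk3 was nearest to Kirrel (0.24), Rasgef1b (0.24) and Fam78b (0.29), and Wif1 to the phospholipase gene Pla2g7 (0.38), Bicc1 (0.46) and Cacna1g (0.53). Frzb was nearest to Alx4 (0.45), Ptprd (0.56) and the Notch effector Heyl (0.58). Dkk2 lay nearest to Igsf10 (0.29), the collagen-crosslinking enzyme gene Loxl2 (0.30) and the fibrillin gene Fbn1 (0.37), and Sfrp1 nearest to Pclaf (0.51), which encodes a partner of the replication clamp, Lrrc8c (0.52) and Nrep (0.52).

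Genes for the ligands and receptors that these antagonists bind changed in both directions. Of 19 Wnt ligand genes 13 were tested, and 5 were higher and 2 lower than in Ki67-negative nests and 5 higher and 1 lower than in Ki67-positive nests. Over all genes tested, 31.9% were called against Ki67-negative and 26.0% against Ki67-positive nests. The higher calls include Wnt10a, lost in 12 other settings over Ki67-negative and 4 over Ki67-positive nests. Wnt4, a ligand of epithelium, averaged 73.8 ± 21.2 CPM in vismodegib, 21.0 ± 6.42 CPM in Ki67-negative and 20.5 ± 4.37 CPM in Ki67-positive nests (SD, n = 5 each), with log2 fold changes of 1.81 (adjusted p = 2.66e-05, edgeR) over Ki67-negative and 1.85 (adjusted p = 2.50e-05) over Ki67-positive nests. Each pair of adjusted p-values given for a gene from here on is edgeR's, over Ki67-negative and then over Ki67-positive nests. Wnt3, which signals through beta-catenin, averaged 10.7 ± 8.61 CPM in vismodegib, 0.379 ± 0.247 CPM in Ki67-negative and 0.595 ± 0.513 CPM in Ki67-positive nests (adjusted p = 5.74e-05 and 0.000142). Its relative Wnt3a averaged 5.91 ± 3.31 CPM in vismodegib, 0.551 ± 0.641 CPM in Ki67-negative and 0.238 ± 0.257 CPM in Ki67-positive nests (adjusted p = 0.00155 and 0.000275). Wnt16, also called higher, averaged 0.589 CPM in Ki67-negative and 0.748 CPM in Ki67-positive nests. These 3 genes passed the filter on low counts through the vismodegib group, and their calls rest on few untreated reads. Wnt5a, best known for signalling without beta-catenin, was lower, at 18.3 ± 9.57 CPM in vismodegib, 49.9 ± 19.5 CPM in Ki67-negative and 58.7 ± 16.2 CPM in Ki67-positive nests (adjusted p = 0.00276 and 0.000981).

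Of 17 receptor and co-receptor genes 16 were tested, and 2 were higher and 4 lower than in Ki67-negative nests and 3 higher and 4 lower than in Ki67-positive nests. Beside these counts, 31.9% and 26.0% of all genes tested were called, in either direction. Among the receptor genes, the lower calls of Fzd5 were lost in 10 and 5 other settings over Ki67-negative and Ki67-positive nests. The higher call of Kremen2 over Ki67-positive nests was lost in 10. The Frizzled receptor Fzd10 averaged 21.3 ± 3.92 CPM in vismodegib, 0.799 ± 0.586 CPM in Ki67-negative and 2.22 ± 1.16 CPM in Ki67-positive nests (adjusted p = 6.76e-06 and 0.000102, edgeR). Fzd6 rose by 1.16 (adjusted p = 9.39e-06) and 0.95 (adjusted p = 8.13e-05) on the log2 scale over Ki67-negative and Ki67-positive nests. Fzd2 was lower, at 42.6 ± 12.3 CPM in vismodegib, 108 ± 31.2 CPM in Ki67-negative and 111 ± 23.5 CPM in Ki67-positive nests (adjusted p = 0.000326 and 0.000287). Lrp6, the co-receptor bound by Dkk1, Dkk2 and Sostdc1, averaged 262 ± 24.1 CPM in vismodegib, 330 ± 43.1 CPM in Ki67-negative and 373 ± 48.4 CPM in Ki67-positive nests. Its log2 fold change was −0.51 (SE 0.122, adjusted p = 0.00459, edgeR) over Ki67-positive nests. Over Ki67-negative nests it was −0.33 (SE 0.122, adjusted p = 0.0445), a call lost in 14 other settings. Lrp5 fell by 0.55 (adjusted p = 0.0208) and 0.66 (adjusted p = 0.00890) on the log2 scale over Ki67-negative and Ki67-positive nests, and the first call was lost in 3 settings, among them without Ki67-negative library 2 (adjusted p = 0.0622) or vismodegib library 4 (adjusted p = 0.0544).

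Of 21 other modulators 15 were tested, and 3 were higher and 5 lower than in Ki67-negative nests and 3 higher and 4 lower than in Ki67-positive nests. Among all genes tested 31.9% and 26.0% were called in these comparisons. Trabd2b, which encodes the Wnt-cleaving membrane protease Tiki2, averaged 7.39 ± 2.70 CPM in vismodegib, 113 ± 30.2 CPM in Ki67-negative and 95.2 ± 43.5 CPM in Ki67-positive nests, with log2 fold changes of −3.92 (adjusted p = 2.6e-07, edgeR) over Ki67-negative and −3.67 (adjusted p = 4.74e-07) over Ki67-positive nests. Apcdd1 averaged 216 ± 55.2 CPM in vismodegib, 54.6 ± 23.3 CPM in Ki67-negative and 63.5 ± 18.1 CPM in Ki67-positive nests (adjusted p = 3.19e-05 and 0.000101). Rnf43, a ubiquitin ligase that removes Frizzled receptors, averaged 79.1 ± 12.9 CPM in vismodegib, 35.7 ± 11.5 CPM in Ki67-negative and 37.8 ± 5.02 CPM in Ki67-positive nests (adjusted p = 0.000221 and 0.000474). Draxin was lower, at 2.25 ± 1.58 CPM in vismodegib, 11.7 ± 3.09 CPM in Ki67-negative and 7.23 ± 1.3 CPM in Ki67-positive nests (adjusted p = 0.000673 and 0.00968). So was Lgr4, at 294 ± 91.8, 661 ± 131 and 800 ± 210 CPM in the same order (adjusted p = 0.000355 and 6.11e-05). Ndp was lower in both comparisons, and Rspo4 only over Ki67-negative nests. Sost and Sfrp5 were too scarce to be tested. Dkkl1, which resembles Dkk3, gave 204 reads in vismodegib libraries, 1 read in Ki67-negative and 4 reads in Ki67-positive libraries, a depth-scaled ratio of 163 (95% counting interval 28.9 to 6460) over Ki67-negative and 43.6 (16.8 to 161) over Ki67-positive nests. It passed the filter only through the vismodegib group.

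Of 10 Wnt target genes 9 were tested, and 2 were higher and 2 lower than in Ki67-negative nests and 2 higher and 1 lower than in Ki67-positive nests. The share called among all genes tested was 31.9% and 26.0%. Axin2, a feedback inhibitor induced by beta-catenin, averaged 136 ± 27.0 CPM in vismodegib, 31.7 ± 13.1 CPM in Ki67-negative and 29.2 ± 5.52 CPM in Ki67-positive nests (adjusted p = 4.95e-06 and 3.24e-06). The receptor gene Tnfrsf19, also called Troy, averaged 197 ± 42.4 CPM in vismodegib, 13.2 ± 3.83 CPM in Ki67-negative and 16.3 ± 5.46 CPM in Ki67-positive nests (adjusted p = 3.45e-08 and 4.64e-08). Lef1, itself a nuclear partner of beta-catenin, was lower, at 9.80 ± 2.88 CPM in vismodegib, 49.6 ± 9.74 CPM in Ki67-negative and 37.5 ± 10.9 CPM in Ki67-positive nests (adjusted p = 1.21e-06 and 9.92e-06). Of the tested genes in these 4 lists edgeR called 0 for Ki67-negative over Ki67-positive nests.

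**Figure D5:**
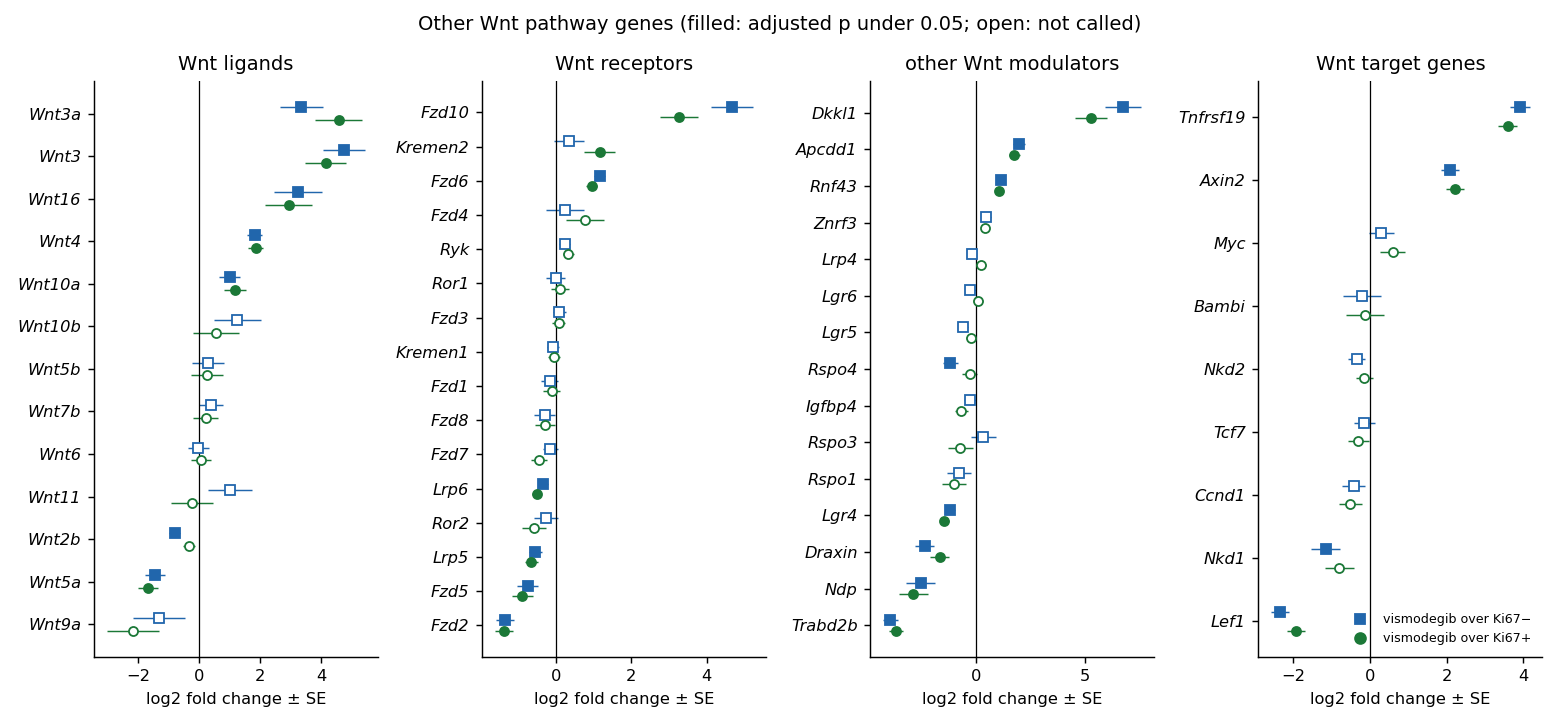
Log2 fold changes with standard errors of the tested Wnt ligands, receptors, other modulators and target genes, for vismodegib over Ki67-negative nests (blue squares) and over Ki67-positive nests (green circles), with filled symbols where the adjusted p was under 0.05. Horizontal scales differ between panels. Tnfrsf19, at 3.90 and 3.59, heads the target genes and Lef1, at −2.34 and −1.93, ends them.

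Since Sostdc1 also binds BMPs, 17 BMP genes were set beside it, of which 14 were tested. In each vismodegib comparison 3 were higher and 4 lower, where 31.9% of all genes tested were called against Ki67-negative and 26.0% against Ki67-positive nests. Fst, which encodes the activin and BMP inhibitor follistatin, averaged 374 ± 98.1 CPM in vismodegib, 148 ± 55.4 CPM in Ki67-negative and 157 ± 47.6 CPM in Ki67-positive nests (adjusted p = 0.000726 and 0.00136, edgeR). The ligand gene Bmp2 averaged 8.82 ± 2.85 CPM in vismodegib, 2.16 ± 1.42 CPM in Ki67-negative and 1.56 ± 0.525 CPM in Ki67-positive nests (adjusted p = 0.0113 and 0.00376). Another ligand gene, Bmp7, averaged 89.9 ± 24.6 CPM in vismodegib, 194 ± 35.3 CPM in Ki67-negative and 166 ± 38.8 CPM in Ki67-positive nests (adjusted p = 0.000517 and 0.00348). Chrd, the chordin gene, and Bmp6 were also lower in both comparisons. With 1 library left out, the log2 fold change of Chrd ran from −2.66 to −2.08 over Ki67-negative and −2.07 to −1.6 over Ki67-positive nests. That of Bmp6 ran from −3.1 to −2.25 and −2.72 to −1.88 over the same groups. The BMP-responsive gene Id2 was higher, with log2 fold changes of 1.05 (adjusted p = 0.00373) over Ki67-negative and 0.92 (adjusted p = 0.00990) over Ki67-positive nests. Its relatives, named after their values were seen, differed. Id3 was lower, at −0.91 (adjusted p = 0.0257) over Ki67-negative and −1.05 (adjusted p = 0.0129) over Ki67-positive nests. The first of these calls was lost without Ki67-negative library 2 or vismodegib library 1, 3 or 5, and the second without Ki67-positive library 4. Id1 was not called in either comparison (adjusted p = 0.669 and 0.489).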

How the data were processed

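Polyadenylated RNA of laser-captured nests was sequenced in 15 libraries. Reads were aligned with GSNAP to GRCm38, per the submitters' processing notes. Each deposited file gives read counts per gene, of reads aligned uniquely to a gene model, per the file headers. It also gives deposited RPKM values that the authors adjusted with a size factor for each library. Neither the version of the aligner nor the annotation release or strand setting is stated here, so antisense or overlapping reads cannot be told apart. Of 36528 gene identifiers 31049 matched a RefSeq symbol, and the unnamed ones, with 2.258% to 3.934% of a library's counts, stayed in the fit.

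Counts were filtered with filterByExpr (minimum count 10, minimum total 15), which left 17282 genes and removed Dkk1 and Sfrp4. They were scaled by TMM and tested with edgeR 4.0.16's two-sided quasi-likelihood test in R 4.3.3, with all 15 libraries in 1 fit (12 residual degrees of freedom). A call is an adjusted p under 0.05 over all genes tested. The test gives no SE, so each SE was worked back as the absolute log2 fold change divided by the square root of its F statistic. CPM values use TMM-scaled totals, and the common biological coefficient of variation was 0.348. Precision follows from 4887381 to 10328822 counts per library, and intervals cover counting error only. RPKM values served only to compare genes per length. Library numbers 1 to 5 follow identifier order and pair nothing, and p-values measure the spread between libraries, which may be partly technical. No pair of libraries within a group was identical, and pairs from different groups were not compared. Scripts were tested on simulated counts.

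The members and lists were chosen with earlier results of these data known. All 9 members are named. Genes named from the other lists mostly had small adjusted p-values, but followed no fixed rule. Alternatives were DESeq2 1.42.0 (test and size factors), voom in limma 3.58.1, other filters, the 2 groups alone, covariates and leaving out each library.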

Additional observations from a re-analysis of the deposited data

Results flagged for a closer look

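In 39 groups of 5 libraries checked for a library that stands apart from the other 4, 5 groups had one. Chance gives about 1 in 20 for normally distributed values, which values from few reads are not. Sfrp1 reached 145 CPM in Ki67-positive library 3, against 25.7 to 57.7 CPM in the others of that group, and the call of Sfrp1 against Ki67-positive nests was lost without it (adjusted p = 0.0881, edgeR). Frzb was flagged in each group. It stood at 4.13 CPM in vismodegib library 4 (others 0.158 to 0.693 CPM), at 22.5 CPM in Ki67-negative library 2 (others 5.68 to 9.84 CPM) and at 29.9 CPM in Ki67-positive library 4 (others 5.63 to 12.4 CPM). Without each of these, in turn, the call of Frzb against untreated nests held. Sfrp4 had 0.308 CPM in vismodegib library 1, from 2 reads, and 0 in the other 4 libraries of that group, a pattern flagged at any level.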

How the results depend on the processing

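The calls of Sostdc1, Dkk3, Wif1 and Frzb against both untreated groups held in all 23 other settings (adjusted p from 2.37e-37 to 2.44e-06 for Sostdc1 against Ki67-negative nests, and at most 0.0185 for Wif1 and 0.0168 for Frzb). The call of Sfrp1 against Ki67-positive nests (log2 fold change −1.59 to −0.82 when 1 library was left out) was also lost with voom (adjusted p = 0.0520) and without a filter on low counts (0.0604). For Ki67-negative over Ki67-positive nests, 30 genes were called, against 0 with the 2 groups alone, 86 with DESeq2, 15 with voom and 0 to 43 when 1 library was left out. Of the members, 1 (Sostdc1) was called with DESeq2, with the fibroblast score covariate (adjusted p = 0.0479) and with no filter (0.0300), and 0 to 1 when 1 library was left out. In the vismodegib comparisons 4 members were called whichever library was left out against Ki67-negative nests, and 4 to 5 against Ki67-positive nests. Members that were not called changed sign in some settings, and the cause was not tested. With the fibroblast score covariate the log2 fold change of Dkk2 was 0.51 and 0.40 over Ki67-positive and Ki67-negative nests and that of Sfrp2 was 1.49 over Ki67-positive nests. With voom, Sfrp2 was −0.45 for vismodegib over Ki67-negative and 0.18 for Ki67-negative over Ki67-positive nests. Leaving out 1 library gave Sfrp2 −0.60 to 0.44 over Ki67-negative nests, −0.74 to 0.69 over Ki67-positive nests and −0.52 to 0.63 between untreated groups. It gave Sfrp1 −0.38 to 0.12 over Ki67-negative nests and Frzb −0.76 to 0.18 between untreated groups. The difference in mean CPM of Dkk1 ran from −1.52 to −0.847 over Ki67-positive nests, from −0.391 to −0.214 over Ki67-negative nests and from −1.22 to −0.545 between untreated groups. Without Ki67-negative library 4 the exact permutation test of the second gave p = 0.0159, and without Ki67-positive library 2 or 3 that of the third gave p = 0.0476 or 0.0397. That of Sfrp4 over Ki67-negative nests ran from −0.0706 to 0.0239. Of 150 calls of other listed genes, 32 were lost in at least 1 alternative, 118 were kept in all of them and none changed sign. A check with CPM divided by transcript length was not run. No paired analysis was possible because the labels carry no replicate numbers. Depth limits Dkk1, Sfrp2, Sfrp4 and treated Frzb, which rest on few reads, as do the untreated values of Wnt3, Wnt3a, Wnt16 and Dkkl1.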
